A study of Mus musculus with 8 samples.

Results

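Gene expression was compared between mixed BL and C57B6 genetic backgrounds in mouse embryonic fibroblasts, which are cells of connective tissue put in culture from embryos. C57B6 is an inbred line. Mixed BL is a cross of 129SVJ, an inbred strain from which many embryonic stem cells for gene targeting were derived, with NIH Black Swiss, an outbred stock. All 8 arrays of the series entered the comparison: 4 of mixed BL cells and 4 of C57B6 cells, chosen by their labelled background. Within each background there was 1 array of wild-type cells and 1 of cells without Smurf2, a ubiquitin ligase of the NEDD4 family, at an early and a late passage. The arrays therefore formed 4 pairs, matched on genotype and passage class: wild-type early, Smurf2-/- early, wild-type late and Smurf2-/- late. The passages were not equal, since early was passage 7 in C57B6 and 6 in mixed BL, and late was 28 in C57B6 and 33 in mixed BL. Per the labels, each C57B6 culture came from 1 embryo, whereas in mixed BL the wild-type cells were pooled from 2 embryos and the Smurf2-/- cells from 3. Different fields of the labels give different embryonic days. Nor do they tell if the late cells descend from the early ones or if arrays stand for separate cultures, so the p-values reflect no more than the scatter among these 8 arrays, which may be technical.

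Laboratory mouse strains differ in DNA sequence, in the number of copies of some genes and in the retroviral insertions they carry. These differences alter the RNA level of many genes in cultured cells, and some strains are known natural knockouts of single genes. A probe on an expression array is a short DNA strand, usually designed on the C57BL/6 reference sequence. A sequence difference under a probe can lower its signal without a change in RNA level, and an extra gene copy can raise it. Probe sequences and strain genotypes were not analysed here, so a difference in RNA level and a difference in probe match cannot be told apart for any gene below.

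Values are log2 differences from the median of a transcript cluster (the set of probes for 1 transcript) over the 8 arrays. They show how arrays differ for a gene and not how abundant the gene is. A difference of 1 is a doubling. Differences are given as mixed BL minus C57B6, and values of 4 arrays always follow the order wild-type early, Smurf2-/- early, wild-type late, Smurf2-/- late. The test was limma with genotype and passage class in the model and a Benjamini-Hochberg adjusted p under 0.05 over all 24169 clusters.

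Passing clusters numbered 66, which is 0.273% of those tested. Of these, 39 (0.161%) were higher and 27 (0.112%) lower in mixed BL. All 66 had the same sign in all 4 pairs, and in 64 of them the values of the 4 mixed BL and the 4 C57B6 arrays did not overlap. The 66 were chosen on these same arrays, so the shared sign and the lack of overlap largely restate that choice. Among all clusters the share without overlap was 6.73% (1626), with 3.34% higher and 3.38% lower in mixed BL. The 66 named 36 genes, 18 in each direction; 19 further clusters had no gene symbol and 5 had several. An unadjusted p under 0.05 was reached by 3413 clusters (14.1%). After quantile normalisation 36 clusters passed, 25 higher and 11 lower. Of the 36 named genes, each followed by 1 cluster, 11 still passed and 25 did not. How many of all 66 clusters still passed was not counted. The count changed with the arrays and the model. Leaving out the late C57B6 Smurf2-/- array gave 252, and leaving out any other single array gave between 1 and 4. Taking each of the 4 pairs as a replicate block gave 2, AI506816 among them. Each of these fits also has fewer residual degrees of freedom.

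A shared sign alone was common. Of all clusters, 5171 (21.4%) had the same sign in all 4 pairs, 2602 of them higher (10.8%) and 2569 lower (10.6%) in mixed BL. A difference of at least 1 (log2) in every pair was found in 33 clusters (0.137%), 16 higher (0.0662%) and 17 lower (0.0703%), of which 23 passed the test. The paired differences of wild-type and Smurf2-/- cells resembled each other at early passage, with r = 0.68 across the 24169 clusters. Across the same clusters, which are not independent replicates, r was 0.25 between the wild-type early and wild-type late pairs, 0.17 between the Smurf2-/- early and late pairs, and 0.10 between the late pairs of the 2 genotypes. The pairs compared share no array. In the plot of pair against pair, the cloud of all clusters loses its slant from left to right; the clusters that passed are marked, and they were chosen on these same pairs.

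**Figure D1:**
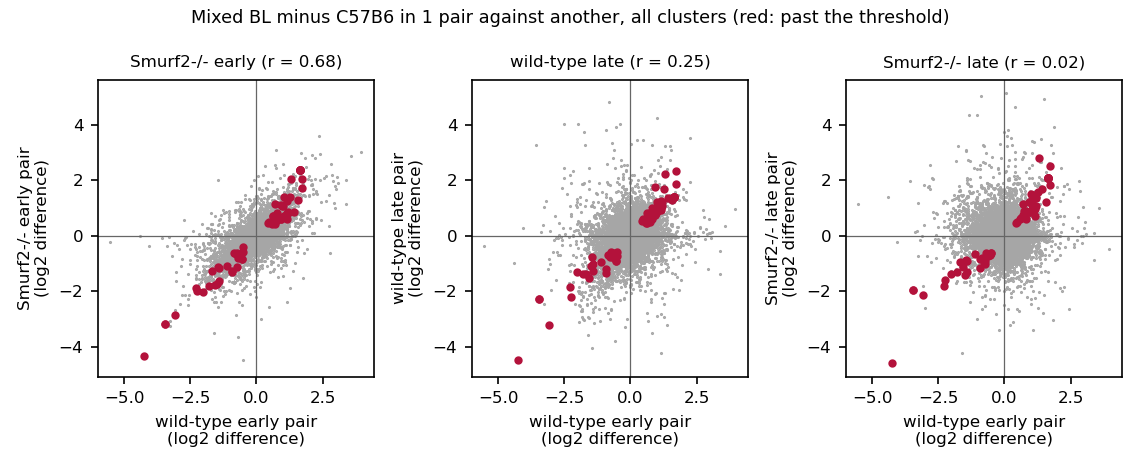
Mixed BL minus C57B6 in the wild-type early pair (x axis, log2 difference) against the Smurf2-/- early, wild-type late and Smurf2-/- late pairs (y axes, log2 difference); each point is 1 of 24169 transcript clusters and red points are the 66 past the threshold. Pearson's r was 0.68, 0.25 and 0.02 in the 3 panels, and the red points have the same sign in every pair.

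The largest difference belonged to AI506816, a transcript known only by its clone name, which was lower in mixed BL. It stood at 2.10, 2.21, 2.32 and 2.23 in the C57B6 arrays and at -2.16, -2.10, -2.15 and -2.37 in the mixed BL arrays. The arrays of each background lay close together, and the backgrounds were more than 4 apart in each pair. The difference was -4.41 ± 0.09 (SE, n = 4 against 4), a 21.2-fold lower value in mixed BL (limma adjusted p = 0.000119). It passed under all 17 alternative settings tried, with values from -4.78 to -4.33. The gene table places AI506816 on chromosome 5, whereas clusters with neighbouring identifiers lie on chromosome 1, so the symbol or the position of this cluster is uncertain.

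Trim13, a ubiquitin ligase of the endoplasmic reticulum, was lower in every mixed BL array. Its values were 1.30, 1.08, 0.94 and 0.81 in C57B6 and -0.97, -0.81, -0.89 and -1.01 in mixed BL, a difference of -1.95 ± 0.09 (limma adjusted p = 0.00701). The groups did not overlap, and Trim13 passed under 11 of 17 alternatives. Gas5, a noncoding RNA gene that hosts small nucleolar RNAs in its introns and accumulates in arrested cells, stood at 1.44, 1.32, 1.55 and 0.66 in C57B6 and at -0.80, -0.66, -0.67 and -0.94 in mixed BL. The late C57B6 Smurf2-/- array was the lowest of its group and still lay above all mixed BL arrays. Its difference was -2.01 ± 0.17, a 4.03-fold lower value (limma adjusted p = 0.0292). The gene has 3 further clusters, which differed by -1.04 ± 0.49, -1.07 ± 0.39 and -1.27 ± 0.44. None of them passed, and in the late Smurf2-/- pair they were at -0.07, 0.25 and 0.40.

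**Figure D2:**
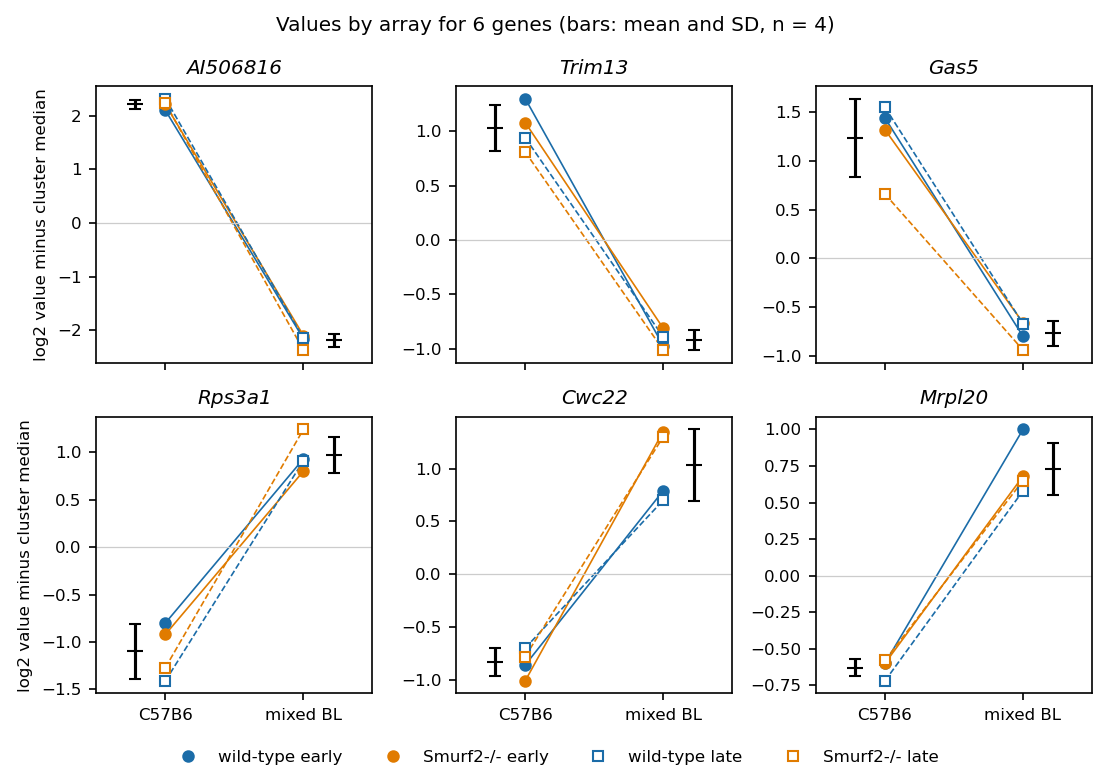
Values of 6 genes in the 8 arrays (y axis, log2 value minus the cluster median) for C57B6 and mixed BL (x axis), with lines joining the arrays of a pair and bars showing mean and SD (n = 4). AI506816, Trim13 and Gas5 are lower and Rps3a1, Cwc22 and Mrpl20 higher in mixed BL, and in none of the 6 do the backgrounds overlap.

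Several genes of signalling and transcription were lower in mixed BL. Tnfrsf1b encodes the second receptor for tumour necrosis factor. It stood at 1.05, 1.03, 0.37 and 0.67 in C57B6 and at -0.37, -0.58, -0.90 and -0.64 in mixed BL, a difference of -1.40 ± 0.11 (2.65-fold lower, limma adjusted p = 0.0292). Egr1, an immediate early zinc finger transcription factor that growth factors induce, stood at 1.33, 0.93, 0.58 and 0.07 in C57B6 and at -0.07, -0.21, -0.43 and -0.84 in mixed BL. It differed by -1.12 ± 0.10 (limma adjusted p = 0.0292), and within each background its value was lower at late than at early passage in both genotypes. Atf7ip, a partner of the histone methyltransferase Setdb1 in gene silencing, differed by -1.43 ± 0.12. A second Atf7ip cluster, inferred to be brighter from the rounding step of the deposited values, differed by -0.26 ± 0.09 and did not pass. The corepressor gene Rcor2 differed by -0.95 ± 0.09, the homeobox gene Pknox2 by -0.89 ± 0.10 and the zinc finger gene Zfp236 by -0.60 ± 0.06.

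Genes of metabolism and secretion were also among those lower in mixed BL. Phka2, the X-linked regulatory subunit of liver phosphorylase kinase, which starts glycogen breakdown, stood at 0.73, 0.69, 0.70 and 0.61 in C57B6 and at -1.28, -1.33, -0.61 and -0.76 in mixed BL. The C57B6 arrays lay close together, and the mixed BL arrays were lower at early than at late passage. The difference was -1.68 ± 0.15 (3.19-fold lower, limma adjusted p = 0.0299), and it was -2.01 ± 0.08 at early and -1.34 ± 0.08 at late passage. Ndufs5, a subunit of respiratory complex I, differed by -1.31 ± 0.14, C1qtnf12, which encodes the secreted protein adipolin, by -1.16 ± 0.08, and the apolipoprotein gene Apoa2 by -0.71 ± 0.07. These 3 genes showed no overlap between backgrounds.

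Of the genes for chaperones, trafficking and RNA binding, Hspa8 encodes the constitutive cytosolic Hsp70 chaperone. Its cluster among neighbours on chromosome 9 stood at 0.63, 0.69, 0.59 and 0.28 in C57B6 and at -0.28, -0.58, -0.74 and -0.54 in mixed BL, a difference of -1.08 ± 0.10 (limma adjusted p = 0.0301). Its 2 other clusters, which by identifier lie on chromosomes 10 and 5, differed by 0.07 ± 0.08 and 0.03 ± 0.09. The 3 clusters of Hspa8 therefore disagreed. Pdia4, a disulfide isomerase of the endoplasmic reticulum, differed by -0.66 ± 0.05, with means of 0.32 ± 0.03 in C57B6 and -0.34 ± 0.05 in mixed BL (SD, n = 4); a second Pdia4 cluster differed by -0.12 ± 0.18. The X-linked RNA-binding gene Rbmx differed by -0.79 ± 0.07, the Arf exchange factor gene Arfgef2 by -0.53 ± 0.06, and Nynrin, a gene with a domain of retroviral origin, by -0.71 ± 0.06. For Arfgef2 and Nynrin all further clusters, 4 and 2 in number, also had negative differences, from -0.37 to -0.34 and at -0.76 and -0.70. These further clusters did not pass, and an Arfgef2 cluster among them was at 0.06 in the late Smurf2-/- pair.

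Among genes higher in mixed BL, several serve protein synthesis and RNA handling. Rps3a1, a protein of the small ribosomal subunit, stood at -0.80, -0.92, -1.41 and -1.27 in C57B6 and at 0.93, 0.80, 0.91 and 1.24 in mixed BL. The backgrounds did not overlap, and the difference was 2.07 ± 0.17 (4.20-fold higher, limma adjusted p = 0.0292). The gene table places Rps3a1 on chromosome 3 and the identifiers place this cluster among chromosome 13 genes. Ribosomal protein genes have many processed copies in the genome, and signal of the parent gene and of a copy cannot be told apart here. The 36 measured genes of the cytosolic ribosomal protein list, which does not hold Rps3a1, had a median difference of 0.09, against 0.00456 over all 17501 genes.

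Cwc22, a splicing factor that loads the exon junction complex, lies at a locus whose copy number is known to vary among mouse strains. It stood at -0.86, -1.01, -0.70 and -0.78 in C57B6 and at 0.79, 1.35, 0.70 and 1.30 in mixed BL, a difference of 1.87 ± 0.16 (3.65-fold higher, limma adjusted p = 0.0292). The Smurf2-/- mixed BL arrays were the highest at both passages, and the paired difference was 0.69 ± 0.16 larger in Smurf2-/- than in wild-type pairs (limma adjusted p = 0.948 for that interaction). Of its 8 clusters, 7 passed and carried nearly the same values, so they count as 1 measurement. The eighth differed by 0.71 ± 0.25, higher in every pair but not past the threshold. Copy number was not analysed here.

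Mrpl20, of the mitochondrial ribosome, stood at -0.60, -0.60, -0.72 and -0.58 in C57B6 and at 1.00, 0.68, 0.58 and 0.65 in mixed BL, a difference of 1.35 ± 0.09 (limma adjusted p = 0.0256). The mixed BL arrays were all above the C57B6 arrays. Nol10, a nucleolar protein gene, differed by 0.92 ± 0.06, Nifk, which encodes a nucleolar partner of Ki-67, by 0.70 ± 0.06, Adat2, the catalytic subunit of a tRNA adenosine deaminase, by 1.03 ± 0.10, and Dph6, of diphthamide synthesis on elongation factor 2, by 0.73 ± 0.08. Cnot8, a deadenylase of the CCR4-NOT complex, differed by 0.95 ± 0.10 in a cluster that the identifiers place on chromosome 8. Its other cluster, on chromosome 11 where the gene lies, differed by 0.00 ± 0.09.

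A further 7 of the genes higher in mixed BL differed by less than 1. Cox6a1, a subunit of cytochrome c oxidase, differed by 0.91 ± 0.09 and Ciapin1, of cytosolic iron-sulphur cluster assembly, by 0.76 ± 0.08. Pole4, an accessory subunit of DNA polymerase epsilon, differed by 0.75 ± 0.07 and Orc2, of the origin recognition complex, by 0.46 ± 0.05. Insig2, which retains the sterol-sensing SREBP complex in the endoplasmic reticulum, differed by 0.52 ± 0.05, Fig4, a phosphoinositide phosphatase, by 0.81 ± 0.08, and the phosphate transporter gene Slc20a2 by 0.61 ± 0.06. All 7 had the same sign in 4 pairs, and in Orc2 alone of them the backgrounds overlapped, since the late C57B6 Smurf2-/- array at 0.03 lay above the early wild-type mixed BL array at -0.03.

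Genes of the cell surface and of signalling completed the higher set. Cdh3, which encodes P-cadherin, stood at -0.69, 0.04, -1.27 and -1.02 in C57B6 and at 0.30, 1.13, -0.04 and 0.48 in mixed BL. The early C57B6 Smurf2-/- array lay above the late wild-type mixed BL array, so the backgrounds overlapped, whereas every pair was higher in mixed BL and the model with genotype and passage class gave 1.20 ± 0.12 (limma adjusted p = 0.0360). With the 4 pairs as a replicate block Cdh3 did not pass. Rims2, a scaffold of presynaptic release sites, differed by 1.48 ± 0.14 and Commd6, of the COMMD family, by 1.16 ± 0.10. The plot of paired differences shows the 36 genes in order, with the smallest difference at Orc2.

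**Figure D3:**
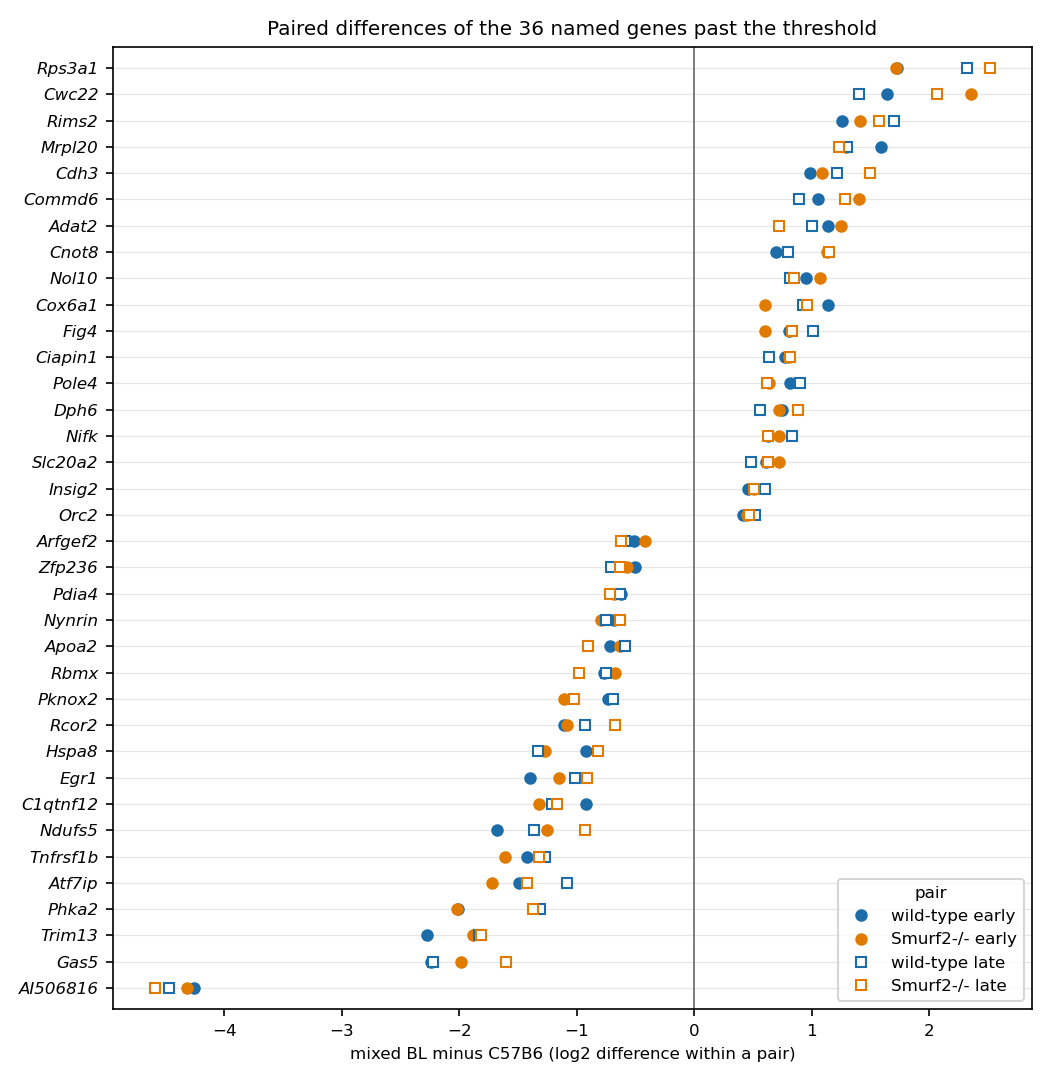
Mixed BL minus C57B6 (x axis, log2 difference) in each of the 4 pairs for the 36 genes that passed the threshold, sorted by mean difference; blue is wild-type, orange Smurf2-/-, filled circles early and open squares late passage. The genes were chosen on these same values. A shared sign in all 4 pairs was required, so all 4 points of every gene lie on the same side of 0. Mean differences run from -4.41 for AI506816 to 2.07 for Rps3a1.

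Clusters without a single gene symbol made up 24 of the 66. The 2 with the largest negative difference were 10551998 and 10508800. Cluster 10551998, placed on chromosome 7 by its neighbours, stood at 1.74, 1.43, 0.87 and 1.25 in C57B6 and at -1.33, -1.42, -2.36 and -0.87 in mixed BL, a difference of -2.82 ± 0.30. Cluster 10508800 differed by -2.72 ± 0.26, and cluster 10573865, chosen after its values were seen and placed on another chromosome, carried nearly the same values. On the positive side, 10471721 differed by 2.11 ± 0.24. Cluster 10601088, placed on the X chromosome, stood at -0.89, -1.22, -0.87 and -0.84 in C57B6 and at 0.84, 0.84, 1.00 and 0.99 in mixed BL (1.87 ± 0.08, limma adjusted p = 0.00486). It had the second smallest adjusted p after AI506816 and no overlap between backgrounds.

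A run of clusters with neighbouring identifiers on chromosome 14 differed together. Of its 30 clusters, 1 is named, Esd, while 14 carry several symbols and 15 none. In the run 10 clusters passed and 25 were higher in mixed BL in all 4 pairs, with 1 lower, where 10.8% of all clusters were higher in all pairs. Their differences ran from -0.08 to 1.46 with a median of 0.75. The run was picked after its values were seen, and 6 of its passing clusters formed 3 sets with nearly the same values. Over all 66 clusters, 6 sets held 17 clusters with nearly the same values, which left 55 distinct measurements. In the 42 passing clusters with 1 symbol, the gene's chromosome differed from that of the neighbouring identifiers in 3 (AI506816, Rps3a1 and Cnot8), against 3.59% (684) of 19067 clusters with a known chromosome.

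Chromosome 14 held 14 of the 66 passing clusters among its 929, 10 of them in that run. Among named genes the closest were C1qtnf12, lower, and Mrpl20, higher, on chromosome 4 with 9 measured genes between them, and Nifk and Insig2, both higher, on chromosome 1 with 18 between them. Intensity was not measured here, and brightness was inferred from the rounding step of the deposited values. Clusters inferred to have a log2 intensity of at least 8 on every array are called bright. They made up 22 of the 66, against 22.4% of all clusters. The 22 include the 7 Cwc22 clusters with nearly the same values.

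Some genes differed by more than 1 in every pair without passing. Cthrc1, a secreted collagen triple helix protein of remodelling matrix, stood at 0.81, 2.64, 1.40 and 2.56 in C57B6 and at -0.81, -0.87, -2.16 and -1.67 in mixed BL. Its groups did not overlap and the difference was -3.23 ± 0.40 (limma adjusted p = 0.0545), with more spread between pairs than AI506816 had. Negative values in every pair were also found for Rgs17, a regulator of G protein signalling (-1.94 ± 0.36), the unconventional myosin gene Myo7a (-1.65 ± 0.28), Tmtc1 (-1.82 ± 0.34) and the integrin gene Itgb8 (-1.55 ± 0.30). Positive values in every pair were found for Rgs4 (1.88 ± 0.61) and Epb41l4a (1.97 ± 0.29). None of these passed (limma adjusted p from 0.0831 to 0.258).

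Loci known to differ among strains were read from a list of 37, of which 30 were measured. Ifi202b, a PYHIN family member of the interferon system, is known to be expressed in some strains and nearly silent in C57BL/6. It stood at -0.68, -0.71, -0.77 and -0.68 in C57B6 and at 0.68, 1.23, 0.71 and 1.99 in mixed BL. The C57B6 arrays lay close together below every mixed BL array, and the difference was 1.86 ± 0.23 (limma adjusted p = 0.0568 as a cluster and 0.0894 over gene means). Nnt, the mitochondrial transhydrogenase gene, is disrupted in the C57BL/6J substrain, and the labels name no substrain. It stood at 0.14, 0.21, 0.05 and 0.25 in C57B6 and at -0.14, -0.27, -0.05 and -0.69 in mixed BL, so it was not the lower one in C57B6 (-0.45 ± 0.14, limma adjusted p = 0.270 over gene means). Casp4, the inflammatory caspase gene for which strains related to 129SVJ are known to carry a disrupting allele, stood at 0.54, 0.67, -0.33 and 0.02 in C57B6 and at -0.92, -0.78, -0.02 and 0.88 in mixed BL. Its paired differences were -1.46, -1.44, 0.31 and 0.86, of opposite sign at early and late passage. Disc1, for which such strains carry a deletion, differed by 0.07 ± 0.07. Of the 30 loci 0 passed over gene means, where 0.08% of all genes did (14 of 17501, 0.0343% higher and 0.0457% lower). In all 4 pairs 6 loci were positive and 3 negative, against 10.4% and 9.93% of all genes.

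Loci in the same list with an unadjusted p under 0.05 numbered 7 of 30, against 13.5% of all genes. Alad, the heme synthesis enzyme whose gene copy number varies among strains, differed by 0.79, 0.53, 1.06 and 0.51 in the 4 pairs (0.72 ± 0.12, limma adjusted p = 0.129). The glutathione transferase gene Gstm1 differed by -0.53 ± 0.14 and the ribosomal protein gene Rpl29 by 0.36 ± 0.07, neither past the threshold. PYHIN family genes had 7 measured members, all with a positive difference, from 0.03 to 1.86, and apart from Ifi202b none was above 0.42. Of all genes 51.7% had a positive difference.

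The difference between backgrounds was read within early and within late passage from a model with their interaction. Within early passage 54 clusters passed (0.223%), 31 higher (0.128%) and 23 lower (0.0952%) in mixed BL; within late passage 1 did (0.00414%), AI506816 at -4.53 ± 0.11 (limma adjusted p = 0.00399). Of the 54, 14 were among the 66. An unadjusted p under 0.05 was reached by 3440 clusters (14.2%) at early and 2694 (11.1%) at late passage. The test of the interaction with passage called 0 clusters by limma, with 2353 (9.74%) at an unadjusted p under 0.05 and a smallest adjusted p of 0.189. The early count was 238 after quantile normalisation, 6 with a variance trend and at most 3 without any single array.

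Of the 54, 42 clusters carried 1 symbol and 33 of these were not among the 66. These 33 differed by at least 0.98 (log2) at early passage, 25 higher and 8 lower, and by -1.32 to 0.56 at late passage. They were picked for passing at early passage and not over all pairs, which favours small late differences, and the plot of early against late differences shows their values as a description.

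**Figure D4:**
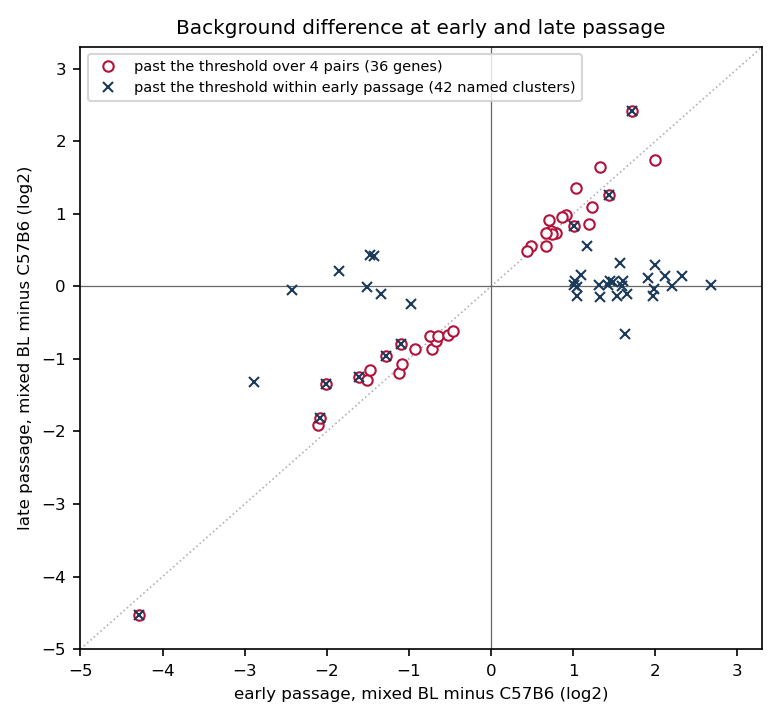
Mixed BL minus C57B6 at late passage (y axis, log2) against early passage (x axis, log2) for the 36 genes past the threshold over 4 pairs (red circles) and the 42 clusters with 1 symbol past it within early passage (crosses); the dotted line marks equal differences. The circles were chosen on the mean of all pairs and the crosses on the early pairs, so where they lie partly restates that choice; the late values of crosses outside the circles run from -1.32 to 0.56.

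Genes lower in early mixed BL cells included Ahr, the dioxin receptor, of which alleles differing in ligand affinity segregate among strains. Ahr stood at 1.36, 0.22, 0.40 and -0.26 in C57B6 and at -1.23, -2.05, 0.26 and -0.22 in mixed BL. The early mixed BL arrays were the lowest and the late arrays of the backgrounds nearly equal; the early difference was -2.43 ± 0.17 (limma adjusted p = 0.0420) and the late one -0.05 ± 0.17. Il1rn, the natural antagonist of the interleukin 1 receptor, differed by -2.89 ± 0.25 at early and -1.32 ± 0.25 at late passage. Bnip3, a hypoxia-induced mitophagy receptor, stood at 1.28, 1.49, -0.15 and 0.16 in C57B6 and at -0.15, -0.09, -0.06 and 0.06 in mixed BL, in the cluster of smaller p. It was high in the 2 early C57B6 arrays and differed by -1.51 ± 0.09 at early passage (limma adjusted p = 0.0346). A second Bnip3 cluster differed by -1.85 ± 0.13 there. The identifiers place that cluster on chromosome 14 and the gene table places Bnip3 on chromosome 7, so its symbol or position is uncertain. The doublecortin-like kinase gene Dclk1 and the ephrin gene Efna1 differed by -1.43 ± 0.12 and -1.47 ± 0.13 at early passage and by 0.42 ± 0.12 and 0.43 ± 0.13 at late passage.

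Genes higher in early mixed BL cells included Gpr149, an orphan receptor, at 2.32 and 3.23 in the early mixed BL arrays and between -0.18 and 0.27 in the 6 others. Its early difference was 2.68 ± 0.23 (limma adjusted p = 0.0432). The ephrin receptor gene Epha3 stood at 1.72 and 1.66 in the early mixed BL arrays and between -0.35 and 0.32 in the others, an early difference of 1.45 ± 0.07 (limma adjusted p = 0.0294). Lpl, lipoprotein lipase, differed by 1.59 ± 0.11, Itga4, the alpha 4 integrin, by 1.31 ± 0.08, and Ch25h, cholesterol 25-hydroxylase, by 1.33 ± 0.11 at early passage, and by 0.00, 0.02 and -0.14 at late passage. The neurotransmitter receptor subunit gene Gabra3, the uncharacterised 4930486L24Rik and the membrane protein gene Tmcc3 differed by 1.54 ± 0.09, 1.97 ± 0.11 and 1.63 ± 0.12 at early passage. For these genes the early mixed BL arrays of both genotypes stood apart from the other 6.

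A pair of leukocyte markers was high in the same early mixed BL arrays. Cd53, a tetraspanin of white blood cells, was at 2.51 and 2.29 in the early mixed BL arrays and between -0.23 and 0.19 in the others (early difference 2.33 ± 0.14, limma adjusted p = 0.0346). Lyz2, the lysozyme of macrophages, was at 3.20 and 2.07 in those arrays and between -0.49 and 0.19 in the others. Of 20 measured macrophage and leukocyte markers 16 were positive in both early pairs, where 42.3% of all genes were, and only Cd53 and Lyz2 by more than 1. The median value over the 20 was 0.16 and 0.06 in the early mixed BL arrays and -0.05 and -0.01 in the early C57B6 arrays. The defining markers Ptprc, Adgre1 and Itgam differed by 0.24, 0.26 and 0.12 in the wild-type early pair and by 0.05, 0.15 and 0.06 in the Smurf2-/- early pair. The part of leukocytes in the early differences was not tested, and in bulk RNA more cells of a type and more RNA per cell cannot be told apart.

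Interferon response genes had a negative median difference at early and a positive one at late passage. Of 41 listed genes 34 were measured, and their median difference was -0.93, -0.59, 0.14 and 0.78 in the 4 pairs, against 0.0271, 0.0264, 0.0389 and -0.0747 over all genes. Negative values in both early pairs were found in 27 of the 34, against 28.8% of all genes, and 18 of these were also positive in both late pairs, against 4.83% of all genes. This and the other gene lists were chosen with earlier results of these data known. Genes of a list can vary together, so such counts are a description and not a test. Bst2, or tetherin, which holds budding virus at the cell surface, stood at 2.29, 1.86, -0.24 and -0.04 in C57B6 and at -0.26, -0.27, 0.04 and 0.75 in mixed BL. The 2 early C57B6 arrays were the high ones. Rtp4 stood at 2.83, 1.71, 0.05 and -0.05 in C57B6 and at -0.06, -0.74, -0.09 and 1.72 in mixed BL, high in the early C57B6 arrays and in the late Smurf2-/- mixed BL array.

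By limma, 0 of the 34 passed over all pairs, at early passage or in the interaction with passage. In that interaction 19 had an unadjusted p under 0.05, against 9.74% of all clusters. Lgals3bp, a secreted glycoprotein gene, had the smallest of these p; its background difference changed by 1.98 ± 0.22 from early to late passage. For Ifit3, an antiviral RNA-binding protein gene, that change was 2.86 ± 0.33. The RNA sensor gene Ifih1 was negative in all 4 pairs (-0.83 ± 0.20), and Ifit2 and Trim25 positive in all 4 (0.59 ± 0.19 and 1.13 ± 0.42). Antigen presentation genes had 23 measured members with a median of 0.02, among them H2-T10 at 0.43 ± 0.10 and H2-DMa at 0.38 ± 0.09 (positive in 4 of 4 pairs, not past the threshold).

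Cholesterol synthesis genes had positive differences in 18 of 19 measured members, with a median of 0.37, where 51.7% of all genes were positive. The median was -0.04 in the wild-type early pair and 0.56, 0.49 and 0.45 in the other pairs in order. Positive in all 4 pairs were 7 of 19 (10.4% of all genes were). Hsd17b7 stood at -0.04, -0.36, -0.52 and -0.65 in C57B6 and at 0.15, 0.33, 0.28 and 0.04 in mixed BL, with no overlap (0.59 ± 0.11, limma adjusted p = 0.143). Mvd, Msmo1 and Lss, 3 further enzymes of the pathway, differed by 0.49 ± 0.13, 0.44 ± 0.12 and 0.52 ± 0.17. None of the 19 passed. Srebf2, the transcription factor that drives the pathway, was the negative member at -0.12 ± 0.11.

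Glycolysis and hypoxia genes had negative differences in 23 of 25 members, with a median of -0.20 and pair medians of -0.39, -0.38, -0.04 and -0.14. Of all genes 51.7% had a positive difference. Ldha, lactate dehydrogenase A, stood at 0.31, 0.41, -0.25 and 0.12 in C57B6 and at -0.09, 0.09, -0.68 and -0.23 in mixed BL. Each pair was lower in mixed BL although the groups overlapped (-0.38 ± 0.08, limma adjusted p = 0.163). Eno2 differed by -0.67 ± 0.19 and the hypoxia target Ankrd37 by -0.34 ± 0.10, while the hypoxia-induced peptide gene Adm was positive in all pairs at 1.42 ± 0.42. Over all pairs 0 of the 25 passed; at early passage Bnip3 did.

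**Figure D5:**
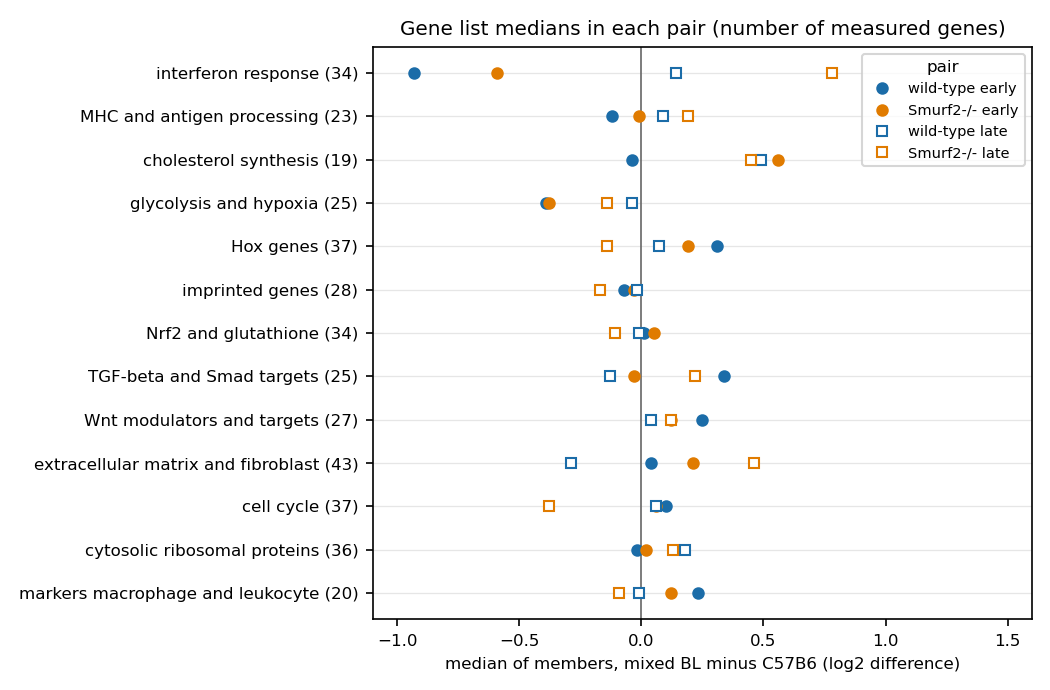
Median of the paired differences, mixed BL minus C57B6 (x axis, log2), over the measured members of 13 gene lists (y axis, number of genes in brackets) in each of the 4 pairs; blue is wild-type, orange Smurf2-/-, filled circles early and open squares late passage. The interferon list spans from -0.93 in the wild-type early pair to 0.78 in the Smurf2-/- late pair.

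Hox genes, which hold the positional identity of fibroblasts along the body, were positive in 28 of 37 members with a median of 0.09. Of all genes 51.7% were positive. The Hox medians in the 4 pairs were 0.31, 0.19, 0.07 and -0.14. In the Smurf2-/- late pair 23 of 37 were negative, where the median over all genes was -0.0747. At early passage 25 of 37 were positive in both pairs, where 42.3% of all genes were, and the highest lay in the Hoxc cluster. Hoxc8 stood at 0.37, 1.20, -0.71 and -0.37 in C57B6 and at 3.00, 3.36, -0.44 and -0.67 in mixed BL. The 2 early mixed BL arrays were far above the other 6. Hoxc4 and Hoxc5 passed within early passage, at 1.09 and 1.98 (limma adjusted p = 0.0451 for both over gene means), and Hoxc6 at 2.03 did not (0.0644). Late differences of these 4 genes lay between -0.03 and 0.16.

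Imprinted genes, expressed from 1 parental allele, were negative in 19 of 28 members with a median of -0.13, where 51.7% of all genes were positive. In all 4 pairs 7 were negative and 2 positive, against 9.93% and 10.4% of all genes. Rian, a maternally expressed noncoding RNA, stood at 1.5, 1.42, 1.64 and -0.66 in C57B6 and at -0.15, 0.15, -0.81 and -1.39 in mixed BL. The late C57B6 Smurf2-/- array lay among the mixed BL values (-1.53 ± 0.41, limma adjusted p = 0.222). Igf2, the fetal growth factor, stood at -0.29, -1.09, 0.29 and -1.32 in C57B6 and at 1.98, -0.50, 3.81 and 0.48 in mixed BL, higher in each pair with overlap between groups (2.04 ± 0.47, limma adjusted p = 0.191). Igf2r, which clears that factor, differed by -0.57 ± 0.09 and Plagl1 by -0.98 ± 0.28. None of the list passed.

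Matrix and fibroblast genes, cell cycle genes and the remaining lists had 0 members past the threshold over all pairs. For extracellular matrix, 43 genes had a median of 0.04 and pair medians of 0.04, 0.21, -0.29 and 0.46. Dcn, the proteoglycan decorin, stood at 0.26, -0.26, -2.17 and -2.49 in C57B6 and at 1.74, 1.66, -2.09 and 2.44 in mixed BL. Its paired differences, 1.48, 1.92, 0.08 and 4.92, were largest in the late Smurf2-/- pair. Efemp1, of the elastic fibre family, ran likewise from 0.07 to 5.13. The 37 cell cycle genes had a median of -0.06. In the late Smurf2-/- pair their median was -0.38, against -0.0747 over all genes, and 32 of 37 were negative. The share of all genes negative in that pair was not counted. Also negative there were 12 of 14 endothelial and 13 of 16 neural markers, but only 5 of 34 interferon response genes. Of senescence genes, Cdkn2a was positive in 4 of 4 pairs (0.65 ± 0.18), Cdkn1b negative in 4 of 4 (-0.48 ± 0.14) and Igfbp3 positive, at 3.59 and 2.86 in the early and 0.37 and 1.00 in the late pairs. The TGF-beta target list (25 genes) had a median of 0.12, the Wnt list (27) 0.23, the Nrf2 and glutathione list (34) 0.05, the BMP and Id list (19) 0 and the histone H2B ubiquitination and NEDD4 family list (20) 0.04. Nqo1 of the Nrf2 list differed by 0.67 ± 0.19 and Gsta4 by 1.72 ± 0.50, Rspo3 of the Wnt list by -1.5 ± 0.31, and Id2 and Id3 by -0.41 ± 0.24 and -0.56 ± 0.29.

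The interaction of background with genotype asked whether mixed BL and C57B6 differed by different amounts in Smurf2-/- and wild-type cells. By limma 0 clusters passed, with 774 (3.20%) at an unadjusted p under 0.05 and a smallest adjusted p of 0.948. Xlr, an X-linked gene of the Xlr family, had the smallest p. It stood at -0.02, 2.22, -0.28 and 2.41 in C57B6 and at -0.02, 0.02, 0.11 and -0.07 in mixed BL. The 2 Smurf2-/- C57B6 arrays were thus the high ones, which both derive from 1-embryo cultures by the labels (interaction -2.54 ± 0.19). Pax9, a paired box transcription factor gene, was lower in mixed BL in all pairs and by more in Smurf2-/- pairs, at -0.75, -2.05, -0.58 and -2.52. Prl2c5, a prolactin family gene, differed by 0.11, 1.69, -0.03 and 1.42 and the annexin gene Anxa8 by -0.42, 1.47, -0.14 and 2.12. Within wild-type pairs 1 cluster passed (0.00414%), with 10.7% of clusters at an unadjusted p under 0.05. Within Smurf2-/- pairs 11 passed (0.0455%), 8 higher (0.0331%) and 3 lower (0.0124%), 9 of them among the 66, with 7.45% at an unadjusted p under 0.05. After quantile normalisation, or without any single array, 0 passed within either genotype.

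Smurf2 itself did not separate the backgrounds. It stood at 0.71, -0.43, 0.64 and -1.21 in C57B6 and at 0.96, -0.70, 0.43 and -1.19 in mixed BL, so that every Smurf2-/- array lay below all wild-type arrays, and the backgrounds differed by -0.05 ± 0.12 (limma adjusted p = 0.935 over gene means; 0.03 after quantile normalisation). A targeted allele can bring along a flanking stretch of chromosome from the strain of the stem cells it was made in. Among the 10 nearest measured genes on either side of Smurf2, 0 passed in the interaction with genotype and 2, Ern1 and Pitpnc1, had an unadjusted p under 0.05. Of all clusters 3.20% had such a p. Ern1 differed by -0.34, 0.16, -0.90 and 0.32 and Pitpnc1 by -0.43, 0.53, -0.28 and 0.56. The median size of the background difference over these 20 genes was 0.103 in wild-type and 0.102 in Smurf2-/- pairs, against 0.126 and 0.114 over all genes.

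Checks on the arrays touched the comparison as follows. The Y-linked genes Uty, Kdm5d and Eif2s3y were high in the 4 Smurf2-/- arrays and low in the 4 wild-type arrays, and Xist the reverse, in both backgrounds. Sex and genotype thus cannot be told apart in these arrays, while the pairs compare arrays of the same pattern. Within pairs they were not equal: Xist differed by -1.67 in the wild-type early pair and Eif2s3y by 1.04 in the Smurf2-/- late pair, and over all pairs Xist differed by -0.51 ± 0.33 and Uty by -0.03 ± 0.13. Fibroblast markers Vim, Col1a1, Col1a2 and Col3a1 were inferred to be bright on every array and differed by -0.01, -0.10, 0.10 and -0.35 between backgrounds. Thy1 and Pdgfra, also fibroblast markers, varied more, with paired differences of 1.85, 2.80, -1.97 and 2.97 and of -1.46, 2.00, -1.47 and 3.05. Lists of endothelial, epithelial, neural, muscle, fat, cartilage, pericyte, erythroid and mesothelial markers had median differences between -0.09 and 0.03. The first 2 principal components held 30.9% and 24.9% of the variance, and the second set the early mixed BL arrays, at 35.0 and 39.9, apart from the other 6, all below 0.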

How the data were processed

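The deposited values are log2 values per transcript cluster on Affymetrix arrays, centred on each cluster's median over the 8 arrays, as a test of the deposited table showed. For array normalisation and probe summary the method is not given in the sources used here. Builds mm8 and mm9 are named, without a role, per the submitters' processing notes. Symbols were updated through RefSeq (GRCm38.p6), used for names and neighbours only. limma 3.58.1 in R 4.3.3 fitted genotype, passage class and background (4 residual degrees of freedom), with Benjamini-Hochberg adjustment over 24169 clusters. Lists were read on gene means (17501 genes with 1 symbol). Genes were named if their cluster passed the threshold with the same sign in all 4 pairs. Others came from gene lists, the interactions with the smallest p and differences of at least 1 in every pair. The members and lists were chosen with earlier results of these data known. Arrays of a pair deviated together from their background means (r = 0.19, 0.34, 0.18 and 0.32), so the pairing was tested as a replicate block, which left 2 clusters. In simulated data 20%, 70%, 88% and 100% of 50 clusters changed by 0.5, 1, 2 and 4 were recovered, with 3 false calls. The simulation drew independent noise and the same difference in every pair. The real arrays of a pair deviated together and the real pairs differed, so these shares need not carry over. The number of arrays limits precision. Some genes are not reported here. Figures used matplotlib 3.10.9.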

Additional observations from a re-analysis of the deposited data

Results flagged for a closer look

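In 16 of 264 groups of 4 arrays tested, 1 array lay far from the other 3 by Dixon's test (critical value 0.829), where chance flags about 1 in 20. The 4 arrays of a group differ in genotype and passage class, whereas the test takes them as replicates of 1 condition. A flag is therefore a description of the values and no sign of a faulty array. Among genes past the threshold, Pknox2 stood at -0.20 in the late Smurf2-/- mixed BL array against -0.52 to -0.48 in the other mixed BL arrays, and Dph6 at 0.65 in the same array against 0.24 to 0.29. Rbmx stood at 0.51 in the early wild-type C57B6 array against 0.26 to 0.29, and Mrpl20 at -0.72 in the late wild-type C57B6 array against -0.60 to -0.58.

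The late C57B6 Smurf2-/- array stood apart for 4 list genes. The matrix gene Postn was at -4.29 there against -0.64 to -0.17, the noncoding RNA Rian at -0.66 against 1.42 to 1.64, the mitotic kinase gene Plk1 at 1.22 against -0.04 to 0.15 and the mitotic transcription factor gene Foxm1 at 1.19 against -0.05 to 0.10. In the late Smurf2-/- mixed BL array Plk1 was at 0.28 against -0.29 to -0.24, and the Wnt antagonist gene Sfrp2 at 3.51 against -0.01 to 0.04.

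The late wild-type mixed BL array stood apart for 5 genes: Efemp1 at -1.05 against 0.95 to 1.20, Gsta4 at -1.38 against 1.63 to 2.18, Adm at -1.23 against 0.42 to 0.69, Nlrc5 at 0.14 against -0.29 to -0.27 and Usp7 at -0.09 against -0.02 to -0.01. Krt5 was at -0.03 in the early Smurf2-/- mixed BL array against 0.03 to 0.04.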

How the results depend on the processing

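The count of 66 clusters became 113 with a variance trend, 36 after quantile normalisation, 14 with both interactions in the model, 14 over gene means and 27 among bright clusters alone. The values are centred per cluster, so no mean level exists for a trend to follow. Quantile normalisation also acted on these centred values and gave the arrays, whose SD ran from 0.226 to 0.365, the same spread. Counts under these 2 settings are therefore of limited use. The count was 2 with the replicate block of 4 pairs, a model with an added term and fewer residual degrees of freedom. With no replicate block, and so without genotype and passage class, it was 82. What part of the fall to 2 goes with pairing was not tested. Leaving out 1 array gave 1 to 252. Each such fit also has fewer residual degrees of freedom, so lost precision and dependence on single arrays cannot be told apart. Of the 36, 32 still passed without the late C57B6 Smurf2-/- array, and 11 after quantile normalisation. AI506816 passed under 17 of 17 alternatives and Trim13 under 11 of 17. Cwc22 and Rps3a1 passed under 9 of 18, and every other named gene under 8 or fewer, down to 4 of 17 for Arfgef2, Dph6 and Pknox2. Within early passage 54 became 6 with a trend, 238 after quantile normalisation and 0 among bright clusters, and 0 to 3 without 1 array. Within late passage the count of 1 became 0 after quantile normalisation and 0 to 2 without 1 array. Within wild-type pairs 1 became 0 after quantile normalisation, 11 among bright clusters and 0 without any 1 array. Within Smurf2-/- pairs 11 became 0 after quantile normalisation and 0 without any 1 array. The interaction counts were 0 without any 1 array. The cause was not tested. Differences near 0 changed sign: Smurf2 was 0.03 after quantile normalisation, and without 1 array Smurf2 ran from -0.17 to 0.05, Uty from -0.12 to 0.07, Mef2c from -0.02 to 0.32, Kdm5d from -0.05 to 0.22 and Eif2s3y from -0.05 to 0.44. With 1 array for each combination, genotype, passage and background together leave no replicate of any culture, and dim clusters carry less signal over background.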
